A study of Mus musculus with 8 samples.

Results

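The genes described here are 10 markers of the adipocyte, the fat-storing cell: Adipoq, Cfd, Lep, Retn, Cidec, Fabp4, Pparg, Lipe, Scd1 and Car3. They were taken by the gene name that the array design gives to its non-control probes, which found all 10, with 15 probes and 33 spots, among 27398 named genes, 41174 probes and 43379 spots. RNA came from the tibialis anterior, a fast muscle at the front of the shin. The 8 donors were males on a C57BL/6 background, 8 weeks old. Of these, 4 were Prep1f/+, which carry a floxed Prep1 allele, and 4 were Prep1deltaSM, in which Prep1 (gene symbol Pknox1, a homeodomain transcription factor) is ablated in skeletal muscle. The labels do not name the Cre line that deletes the gene, nor say whether the Prep1f/+ mice carry a Cre. Each mouse gave 1 array hybridised with Cy3-labelled RNA.

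Adipocytes lie between muscle fibres and along the fascia and vessels of a dissected muscle, so a whole muscle holds RNA of both cell types. White adipocytes secrete hormones such as adiponectin, leptin and resistin, and they keep triglyceride in 1 droplet coated by perilipin and CIDE proteins. The nuclear receptor PPAR gamma drives their differentiation together with C/EBP factors. Some of the genes counted as fat markers are also transcribed elsewhere in muscle: Fabp4 in capillary endothelium, and Car3, Lipe and Pparg in other cell types including the fibres.

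The probes were 60 bases long, and 4 of the 15 crossed an exon junction, since their mm9 positions in the files span more than 60 bases of genome. These are printed because each reports a spliced transcript, and because both Retn probes share 22 bases, given in capitals, so their signals are not independent readings of the transcript. The Retn pair lies on chromosome 8 (plus strand), at 3656145 to 3656966 and 3656107 to 3656928. The Fabp4 probe lies on chromosome 3 (minus strand), at 10204533 to 10205262, and the Lipe probe on chromosome 7 (minus strand), at 26165974 to 26168227. The other 11 probes lie within 1 unbroken stretch of genome, and whether they fall in coding or untranslated exon was not settled, as no mm9 annotation was used here.
Retn A_51_P233597: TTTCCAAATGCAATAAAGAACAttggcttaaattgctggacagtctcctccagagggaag
Retn A_52_P55972: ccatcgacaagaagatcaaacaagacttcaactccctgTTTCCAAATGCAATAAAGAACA
Fabp4 A_51_P336830: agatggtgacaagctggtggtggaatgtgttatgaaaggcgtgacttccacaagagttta
Lipe A_51_P435366: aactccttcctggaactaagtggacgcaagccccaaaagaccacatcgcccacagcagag

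Adipoq, Cfd, Retn and Cidec varied together between the muscles, as described below, so the 250 bases before their start sites are shown, from RefSeq on GRCm38.p6, a later build than that of the probes. RefSeq promoters were found for 7 of the 10 members, 11 start sites in all. Searched on both strands were the exact PPAR direct repeat AGGTCANAGGTCA, a relaxed form AGGNCANAGGNCA, the C/EBP core TTGCNNAA, the TATA box TATAAA, the CCAAT box and the nuclear receptor motif AGGTCA, which also makes up each arm of the exact repeat. Capitals mark the matches. In Adipoq (chr16:23146286-23146535, plus strand) they are 3 CCAAT matches. In Cidec (chr6:113434765-113435014, minus strand, 1 of 2 listed starts) the capitals are 1 C/EBP match. The other Cidec start, not printed, held no match to any motif searched. Cfd (chr10:79890603-79890852, plus strand) and Retn (chr8:3655520-3655769, plus strand) held none of these letters in the window.
Adipoq: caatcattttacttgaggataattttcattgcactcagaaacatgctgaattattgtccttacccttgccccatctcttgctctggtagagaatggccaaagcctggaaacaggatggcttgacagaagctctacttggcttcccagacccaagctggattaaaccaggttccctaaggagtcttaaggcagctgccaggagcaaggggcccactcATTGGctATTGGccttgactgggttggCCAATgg
Cidec: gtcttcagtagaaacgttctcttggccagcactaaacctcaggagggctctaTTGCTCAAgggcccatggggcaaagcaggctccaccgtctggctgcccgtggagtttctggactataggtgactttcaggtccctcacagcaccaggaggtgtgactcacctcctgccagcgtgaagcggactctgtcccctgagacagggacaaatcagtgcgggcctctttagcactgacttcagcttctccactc
Cfd: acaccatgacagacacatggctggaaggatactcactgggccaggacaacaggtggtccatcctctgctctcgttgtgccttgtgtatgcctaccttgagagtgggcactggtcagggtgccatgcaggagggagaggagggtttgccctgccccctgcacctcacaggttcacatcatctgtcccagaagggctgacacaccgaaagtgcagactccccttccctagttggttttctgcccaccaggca
Retn: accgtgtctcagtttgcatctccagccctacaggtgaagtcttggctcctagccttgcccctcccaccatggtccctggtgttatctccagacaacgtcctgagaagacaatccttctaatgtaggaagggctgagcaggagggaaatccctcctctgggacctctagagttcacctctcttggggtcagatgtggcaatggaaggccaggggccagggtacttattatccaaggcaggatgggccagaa
No start site of the 11 held either form of the direct repeat, which 0.0335% (exact) and 0.338% (relaxed) of the 32851 promoters in the table held. CCAAT was in 33.8% of all promoters and in 3 of the 11, the C/EBP core in 9.56% and 3 of the 11, TATAAA in 12.4% and 1 of the 11, and AGGTCA in 14% and 2 of the 11. A match describes letters and is not evidence of a bound site.

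The arrays had 23787 to 27123 spots well above background and 0 saturated spots. Spots that the scanner software flagged as uneven, or as outliers among replicate spots, numbered 49 to 100 per array and were left out. Signals below are log2 intensities relative to the 75th percentile of their own array, so a value of 1 is a doubling over that percentile. A probe was used if its spots stood well above background on 4 or more of the 8 arrays, which left 16015 genes, each represented by its brightest probe. On the first principal component of all genes (24.4% of the variance), Prep1f/+ replicates 1 and 4 stood apart from the other 6 muscles, at 0.42 and 0.72. On the second (22.2%), Prep1deltaSM replicate 4 lay farthest out (-0.68), with Prep1f/+ replicate 2 at the other end (0.46). The targeted gene went with the labels: Pknox1 read -0.09, -0.31, -0.21 and -0.51 in Prep1f/+ and -1.84, -2.08, -2.28 and -1.96 in Prep1deltaSM, a difference of -1.76 ± 0.13 (SE; limma, adjusted p = 0.0072). With slide as a block the same difference had an adjusted p of 0.0619 (limma) and no longer passed. Whether its probe lies in the deleted part was not settled.

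The adipocyte markers ranged from genes that varied widely between muscles to genes that varied little, and the values of the genotypes overlapped for each measured marker. Of the 10 members, 9 were well above background on all 8 arrays and were tested; Lep was not. Of those 9, 5 (Adipoq, Cfd, Retn, Cidec and Scd1) spanned more than 3 log2 units between their highest and lowest muscle, as did 171 of the 16015 genes (1.07%). The other 4 spanned 0.47 to 2.13 log2. Over all genes the span had a median of 0.63 and a 95th percentile of 1.90, readings not well above background included. In bulk muscle, fewer adipocytes and less RNA of a gene per adipocyte cannot be told apart.

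**Figure D1:**
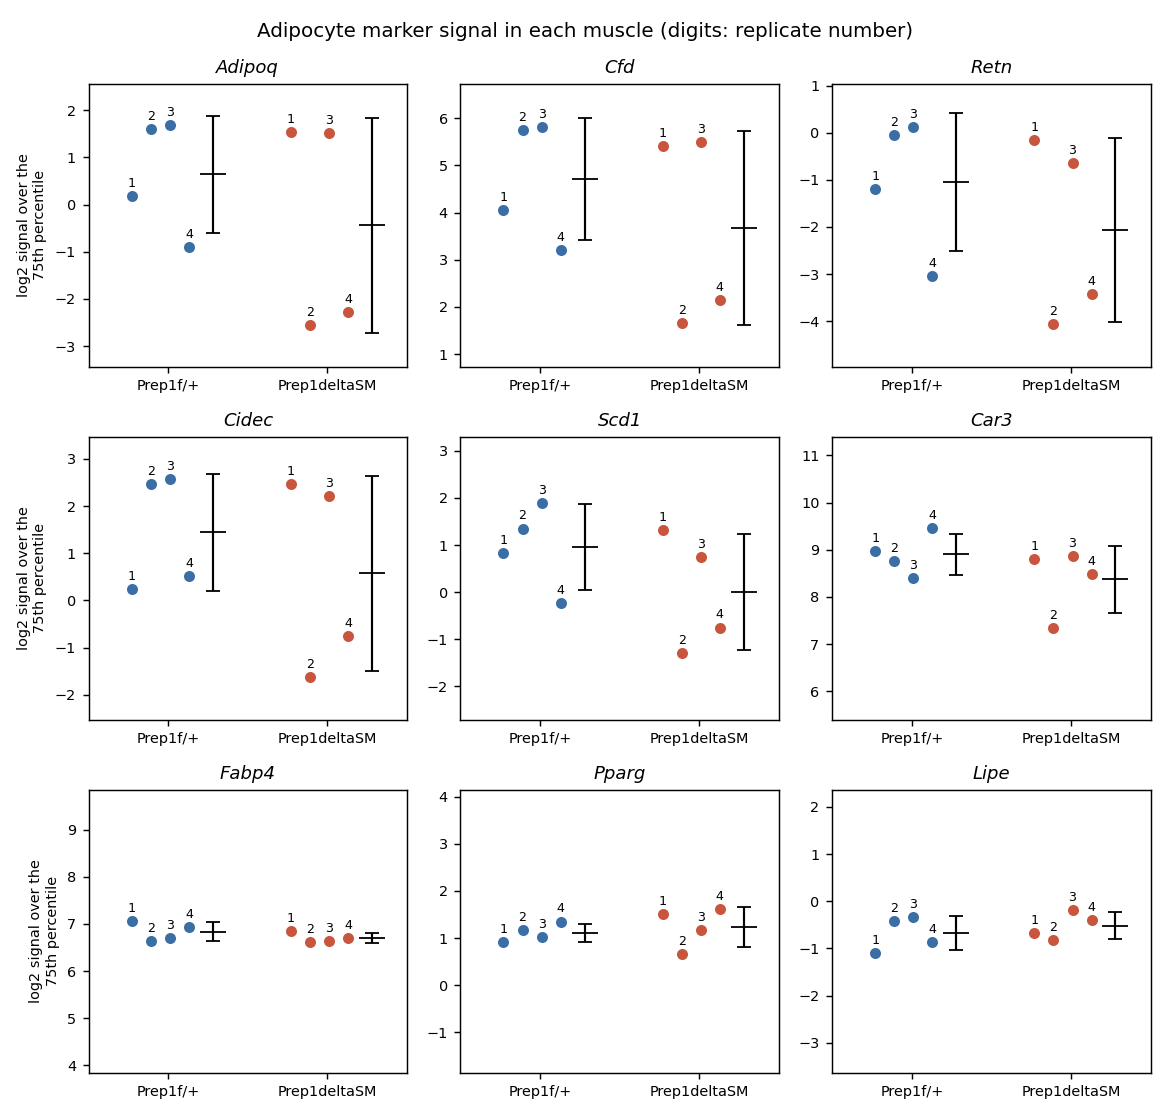
Log2 signal of the 9 measured markers in each muscle (y axis, relative to the array's 75th percentile; every panel spans 6 log2 units). Points are single muscles with their replicate number, blue for Prep1f/+ and red for Prep1deltaSM, and the bar beside them is the mean with SD (n = 4). In Adipoq, Cfd, Retn and Cidec, both genotypes hold high and low muscles, while Fabp4, Pparg and Lipe stay within 1 log2 unit.

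Among the secreted products, Adipoq encodes adiponectin, a hormone made almost wholly by adipocytes. Its signal in Prep1f/+ replicates 1 to 4 was 0.18, 1.60, 1.69 and -0.91, and in Prep1deltaSM replicates 1 to 4 it was 1.54, -2.56, 1.52 and -2.27. The 4 highest muscles, 2 of each genotype, lay within 0.17 of each other, and the next lay 1.34 below them. Prep1deltaSM replicates 2 and 4 were the lowest, and the span over the 8 muscles was 4.25 log2, or 19-fold. The genotype difference was -1.08 ± 1.10 (SE; 95% confidence interval -3.60 to 1.43; limma, adjusted p = 0.647), smaller than the SD of 1.24 within Prep1f/+ and of 2.28 within Prep1deltaSM. The standard deviation of Adipoq within groups ranked 18 of the 16015 genes.

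Cfd encodes adipsin, the complement factor D that adipocytes secrete. Its signal was 4.05, 5.76, 5.82 and 3.20 in Prep1f/+ and 5.42, 1.65, 5.49 and 2.15 in Prep1deltaSM. The muscles fell in the order seen for Adipoq except that Prep1deltaSM replicates 1 and 3 changed places, with a gap of 1.37 below the 4 highest and a span of 18-fold. The log2 difference between Cfd and Adipoq moved by only 0.55 over the 8 muscles, against 4.17 for Cfd itself. Between genotypes Cfd differed by -1.03 ± 1.03 (SE; interval -3.39 to 1.33; limma, adjusted p = 0.643), with both groups overlapping.

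Retn encodes resistin, an adipocyte hormone of rodents. The brighter of its probes read -1.19, -0.06, 0.13 and -3.05 in Prep1f/+ and -0.16, -4.05, -0.64 and -3.43 in Prep1deltaSM. The same 4 muscles were highest and Prep1deltaSM replicate 2 was again lowest, 18.1-fold under the highest. The overlapping second probe spanned 28-fold and differed by -1.27 between genotypes, against -1.03 ± 1.03 (SE; interval -3.39 to 1.34; limma, adjusted p = 0.645) for the first. Lep encodes leptin, the satiety hormone of white fat. Its single probe, printed in 10 spots per array, was above background in 1 of 80 spot readings, in Prep1deltaSM replicate 1, and its mean signal of 1.5 to 5.43 intensity units per array lay below the lowest signal counted as well above background on the same array (5.39 to 8.11 over the arrays). Lep was therefore not well above background in any muscle, including those with the highest Adipoq, and no fold is given.

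Cidec encodes a droplet protein that fuses lipid droplets in white adipocytes. Its signal was 0.24, 2.46, 2.57 and 0.51 in Prep1f/+ and 2.47, -1.63, 2.21 and -0.75 in Prep1deltaSM. The 4 highest muscles were those of Adipoq and lay within 0.36, with the next 1.70 lower; below them, Prep1f/+ replicate 1 came under replicate 4, the reverse of their order for Adipoq. The span was 18.4-fold. The genotypes differed by -0.87 ± 1.02 (SE; interval -3.21 to 1.47; limma, adjusted p = 0.696).

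Among the enzymes of lipid metabolism, Scd1, the desaturase that makes monounsaturated fatty acids, followed the pattern less closely. It read 0.83, 1.35, 1.89 and -0.24 in Prep1f/+ and 1.31, -1.30, 0.75 and -0.75 in Prep1deltaSM, a span of 9.13-fold. The fourth highest muscle was Prep1f/+ replicate 1, only 0.08 above Prep1deltaSM replicate 3, a gap far smaller than the spread within either group. The difference of -0.95 ± 0.65 (SE; interval -2.44 to 0.53) had a limma adjusted p of 0.491. Lipe, the hormone-sensitive lipase that breaks down stored lipid, read -1.09, -0.41, -0.34 and -0.87 in Prep1f/+ and -0.68, -0.83, -0.19 and -0.39 in Prep1deltaSM. It spanned 1.86-fold, and neighbours in its order lay at most 0.26 apart. The genotypes differed by 0.15 ± 0.21 (SE; interval -0.32 to 0.62; limma, adjusted p = 0.736), and the second Lipe probe gave 0.26 with a span of 1.56-fold.

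Fabp4 encodes a fatty acid chaperone of adipocytes and capillary endothelium. It read 7.07, 6.64, 6.70 and 6.94 in Prep1f/+ and 6.85, 6.61, 6.64 and 6.70 in Prep1deltaSM. Its span of 1.38-fold was reached or passed by 68.4% of all genes, and its highest muscle, Prep1f/+ replicate 1, was not among the 4 with the highest Adipoq. The other Fabp4 probes, of which the junction probe had 1 flagged spot in Prep1deltaSM replicate 4, spanned 1.44-fold and 1.4-fold. The difference was -0.14 ± 0.12 (SE; interval -0.41 to 0.13; limma, adjusted p = 0.57), with -0.12 and 0.13 at the other probes.

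Pparg, the receptor that directs adipocyte differentiation, was measured by 10 spots per array. It read 0.91, 1.16, 1.02 and 1.35 in Prep1f/+ and 1.51, 0.67, 1.16 and 1.61 in Prep1deltaSM. Its highest muscle was Prep1deltaSM replicate 4, which was next to lowest for Adipoq, and the span was 1.92-fold. The genotypes differed by 0.13 ± 0.21 (SE; interval -0.35 to 0.60; limma, adjusted p = 0.787).

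Car3, carbonic anhydrase III, is abundant in adipocytes and in muscle fibres. It read 8.97, 8.77, 8.40 and 9.46 in Prep1f/+ and 8.80, 7.33, 8.87 and 8.49 in Prep1deltaSM. Prep1deltaSM replicate 2 was 1.06 below the next muscle, and the other 7 lay within 1.06 of each other. The difference was -0.53 ± 0.36 (SE; interval -1.35 to 0.30; limma, adjusted p = 0.495). A second probe named Car3, designed on another transcript record, did not follow the first: it read 0.16, 0.65, 0.82 and 0.94 in Prep1f/+ and 1.34, 0.81, 1.48 and -1.43 in Prep1deltaSM, lowest in Prep1deltaSM replicate 4, with a difference of -0.09.

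Set against all genes, the spans of Adipoq, Cfd, Retn and Cidec were reached or passed by 0.281%, 0.318%, 0.312% and 0.3% of the 16015 genes. These 4 shared the same 4 highest muscles, Prep1f/+ replicates 2 and 3 and Prep1deltaSM replicates 1 and 3, as did 327 genes in all (2.04%). The spans depended on the background correction: after normexp correction and quantile normalization, in which an offset raises dim signals, they were 5.88-fold, 13.9-fold, 3.24-fold and 7.24-fold, and Scd1 spanned 4.14-fold. The same 4 muscles stayed highest for Adipoq, Cfd, Retn and Cidec under that setting. The median span of all genes also fell there, from 0.63 to 0.31 log2. The spans of Adipoq, Cfd, Retn and Cidec were then reached or passed by 0.25%, 0.0687%, 0.762% and 0.187% of genes.

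**Figure D2:**
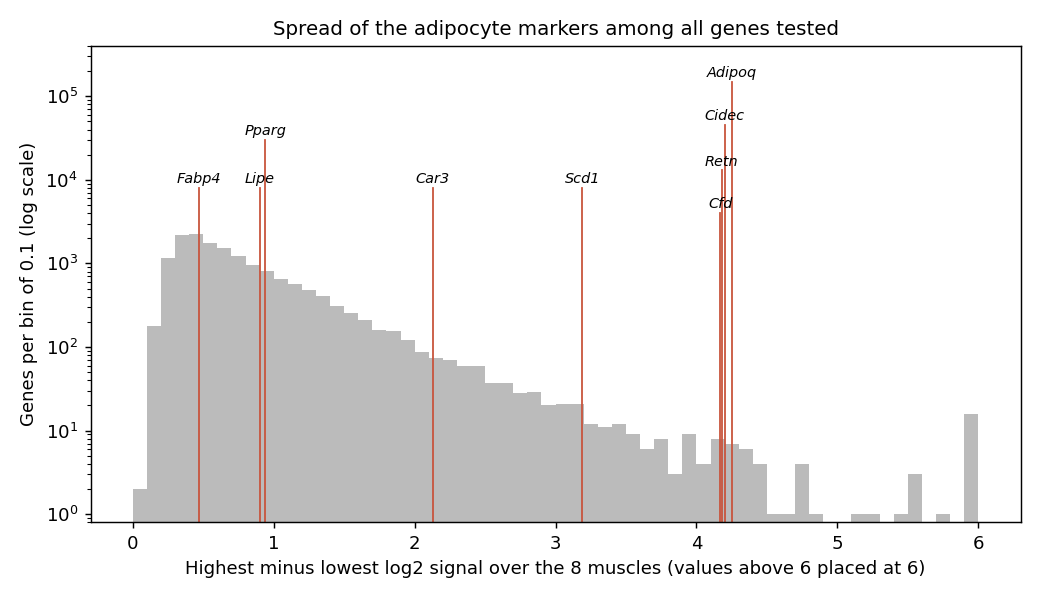
Number of genes (y axis, log scale) by the span between the highest and the lowest of the 8 muscles (x axis, log2 units, bins of 0.1; the last bin holds the 16 genes above 5.9). Red lines mark the 9 measured markers, with Adipoq, Cidec, Retn and Cfd at 4.17 to 4.25 in the sparse right tail and Fabp4 at 0.47 near the bulk of genes.

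The genotype comparison asks whether the loss of Prep1 in muscle came with a change in fat marker RNA. By limma, 0 of the 9 measured members passed an adjusted p of 0.05, against 0.00624% of all genes (1 gene, Pknox1). At an unadjusted p under 0.05 there were also 0 members, against 15.9% of all genes, and in 0 members did the groups not overlap, against 10.5%. The members' exact two-sided permutation p-values ran from 0.2 (Fabp4, Scd1) to 0.6 (Pparg) over the 70 assignments of muscles to groups. In sign, 7 members were lower in Prep1deltaSM and 2 higher, with a median of -0.87; all genes had a median of -0.07 and 62.7% lower. The intervals were up to 5.03 log2 units wide (Adipoq), and that of Adipoq ran from 0.0825-fold to 2.69-fold of the Prep1f/+ level. For Fabp4 the interval was 0.54 wide.

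The median rested on single muscles. It was -0.18 without Prep1deltaSM replicate 2, -0.47 without Prep1deltaSM replicate 4, -0.57 without Prep1f/+ replicate 2 and -1.39 without Prep1deltaSM replicate 1. Without Prep1f/+ replicates 1 and 4, which stood apart on the first principal component only, it was -1.62, and 0 members passed. Within slides, each of which held 1 array of each genotype, Adipoq differed by -0.06, -4.25, -2.46 and 2.43, and Cfd by -0.33, -4.17, -1.90 and 2.28, so the sign was not the same on every slide. For Car3, the unadjusted p was 0.181 without and 0.0297 with slide as a block, with an adjusted p of 0.277 in the blocked fit (limma).

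**Figure D3:**
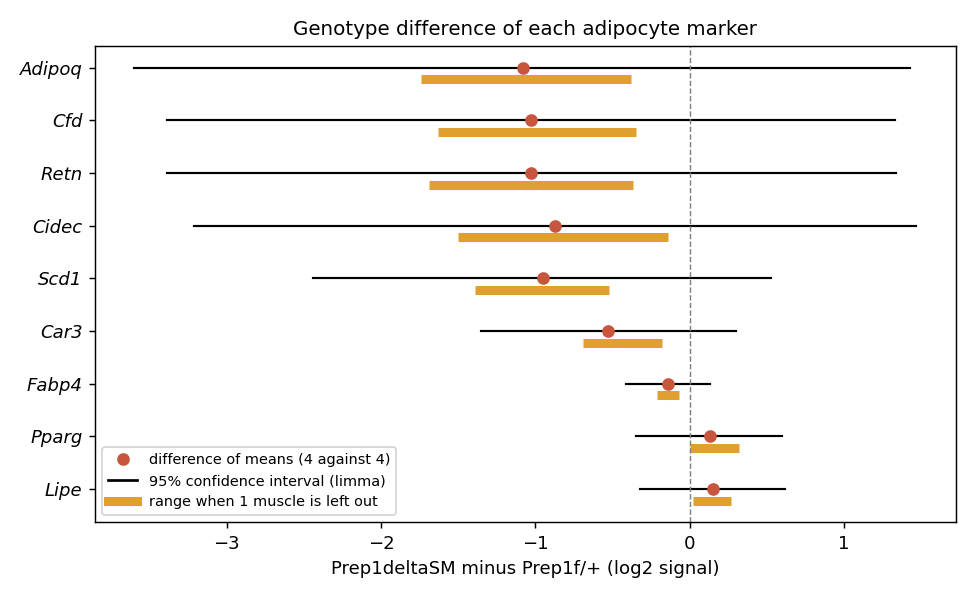
Difference between genotypes (x axis, Prep1deltaSM minus Prep1f/+, log2 signal) for each measured marker. Points are differences of means of 4 muscles, black lines 95% confidence intervals from limma, and yellow bars the range when 1 muscle is left out; all 9 intervals include 0.

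The mean of the 9 members, each centred on its mean over the 8 muscles, was -0.03, 0.78, 0.85 and -0.42 in Prep1f/+ and 0.76, -1.59, 0.62 and -0.98 in Prep1deltaSM. Its SD was 0.62 in Prep1f/+ and 1.17 in Prep1deltaSM (n = 4 each). Over the 8 muscles, the correlation of each member with the mean of the other members was 0.98 for Adipoq, 0.99 for Cfd, 0.96 for Retn, 0.97 for Cidec and 0.95 for Scd1. It was 0.45 for Car3, 0.39 for Lipe, 0.16 for Pparg and 0.05 for Fabp4. Without Prep1deltaSM replicates 2 and 4, the 2 muscles farthest from the median, the correlation with the mean of all 9 members was 0.99 for Adipoq and Cfd, 0.96 for Retn, 0.95 for Cidec, 0.88 for Scd1, 0.76 for Lipe and 0.01 for Pparg, and it was negative for Fabp4 (-0.77) and Car3 (-0.89). The mean of all 9 holds the member itself, which can raise its coefficient, so the values over 8 and over 6 muscles are not like for like. These coefficients describe 8 or 6 points from shared RNA samples that lie in clusters, and carry no test.

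Outside the members, the genes whose signal was most like the members' mean over the 8 muscles (Pearson r, of 15999 genes compared) were Plin1 and the probe NAP025923-1 (0.99 each), Hp, Acvr1c, Cd1d1 and Slc23a3 (0.98), Prkar2b and Slc4a7 (0.97), and Tmem45b and Mrap (0.96). Plin1 encodes perilipin 1, the coat of the adipocyte lipid droplet, and Hp haptoglobin, a plasma protein that fat also secretes. Acvr1c encodes the activin receptor ALK7, and Mrap an accessory protein of melanocortin receptors. Without the same 2 muscles, r was 0.99 for Plin1 and lowest for Slc4a7, at 0.89. Likeness says nothing of size: Slc4a7 spanned 1.2-fold and Prkar2b 3.74-fold. Some of the low readings were not well above background: those of Tmem45b in 3 muscles, Acvr1c in 4, Plin1 in 2 and Mrap in 1, so their coefficients rest in part on background. The lowest correlations were those of Mrps18b (-0.98), Epas1 (-0.96), AW536275 (-0.94), Mrpl45 and AK034316 (-0.93 each), all with spans of at most 1.59-fold.

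Other genes of adipocytes were examined by list. Of 13 measured genes enriched in or secreted by adipocytes, 0 passed the adjusted threshold, 12 were lower and 1 higher. Of the 13, 6 (Sncg, Aoc3, Acvr1c, Cyp2e1, Orm1 and Nnat) had the same 4 highest muscles as Adipoq, against 2.04% of all genes. Acvr1c and Orm1 passed the background filter through those 4 muscles alone, so their match is not separate evidence. The lowest of the 4 lay close to the next muscle for Sncg (-2.11 against -2.13) and Aoc3 (0.28 against 0.17). The gap was wider for Cyp2e1 (-0.86 against -2.42) and Nnat (-3.08 against -4.41). Cyp2e1, a cytochrome P450 measured in all 8 muscles, spanned 15-fold. Nnat, which encodes neuronatin, was well above background in 5 muscles and spanned at least 6.27-fold, counting each dim reading at the lowest signal well above background on its array where that was higher. Acvr1c and Orm1, well above background in the 4 highest muscles only, spanned at least 2.78-fold and 2.58-fold. Retnla, a resistin-like protein made by fat and by macrophages, had groups that did not overlap, 1 such gene among the 13 where 10.5% of all genes were such: it read 1.47, 2.15, 3.07 and 2.23 in Prep1f/+ and 0.91, 0.99, 1.34 and 0.39 in Prep1deltaSM, a difference of -1.33 ± 0.33 (SE; limma, adjusted p = 0.169). Its low muscles included Prep1deltaSM replicates 1 and 3, which were high for Adipoq. Angptl4, an inhibitor of lipoprotein lipase, differed by -0.97 ± 0.32 (SE; limma, adjusted p = 0.226).

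Of the 15 measured genes of lipid droplets and lipolysis, 0 passed, and 12 were lower; under quantile normalization 8 were lower. Plin1 read -2.43, -1.30, -1.37 and -2.99 in Prep1f/+ and -1.28, -5.38, -1.65 and -4.43 in Prep1deltaSM, high and low in the muscles where Adipoq was. Its readings in Prep1deltaSM replicates 2 and 4 were not well above background, and the span was at least 15.1-fold. Plin3, a coat protein found in many cell types, had groups that did not overlap, at 3.88, 4.01, 4.12 and 4.29 against 3.24, 3.24, 3.45 and 3.65 (-0.68 ± 0.13 SE; limma, adjusted p = 0.127). Fitm1, a droplet-forming protein of muscle, was 0.33 ± 0.12 (SE) higher, also without overlap (limma, adjusted p = 0.241). These were the 2 such genes among the 15, where 10.5% of all genes were such. Pnpla3, an acylglycerol hydrolase, was well above background in 6 muscles, spanned at least 13-fold and was highest in Prep1f/+ replicate 1.

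Of the 17 genes of fatty acid and triglyceride synthesis, 10 were lower and 0 passed. Fasn, the fatty acid synthase, had the widest span, 3.38-fold, and differed by -0.63 ± 0.38 (SE; limma, adjusted p = 0.441). Srebf1 (-0.49 ± 0.18) and Scd2 (-0.49 ± 0.19) had adjusted p-values of 0.244 and 0.263 by limma. Dgat1 was higher, by 0.23 ± 0.10 (SE, limma, adjusted p = 0.307). It was the 1 gene of the 17 whose groups did not overlap, where 10.5% of all genes were such. The 7 genes of fatty acid uptake spanned at most 2.37-fold (Aqp7), with 5 lower under the 75th percentile scaling and 3 under quantile normalization. Of 11 adipogenic transcription factors, 0 passed and 9 were lower (7 under quantile normalization); Cebpa, the partner of Pparg, shared the 4 highest muscles of Adipoq but spanned 2.48-fold. The adiponectin receptors Adipor1 and Adipor2 spanned 1.54-fold and 1.37-fold. The brown-fat genes Ucp1 and Elovl3 were not well above background on any array. Of the 5 measured genes listed with brown fat, 4 were lower (3 under quantile normalization) and 0 passed. Dio2, the deiodinase that activates thyroid hormone, differed by -0.68 ± 0.21 (SE, limma, adjusted p = 0.208). Prdm16 was higher, by 0.23 ± 0.10 (SE, limma, adjusted p = 0.314). Of the 10 other measured carbonic anhydrases 7 were lower, where 62.7% of all genes were, and 0 passed. Car13 differed by -0.84 ± 0.29 (SE, limma, adjusted p = 0.232) and Car7 by 0.30 ± 0.13 (SE, limma, adjusted p = 0.31).

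Markers of other cells also varied between these muscles, and their part in the adipocyte results was not tested. The mean of 11 fibroblast and progenitor genes, each centred, ran from -0.19 to 0.29 in Prep1f/+ and from -0.52 to 0.31 in Prep1deltaSM; 8 of 11 were lower in Prep1deltaSM, and 0 passed. The 11 macrophage and leukocyte genes ran from -0.16 to 0.57 and from -0.58 to 0.15, with 11 of 11 lower, and the 8 tendon genes from -0.10 to 0.53 and from -1.11 to 0.40, with 8 of 8 lower. In the fibroblast, leukocyte and tendon means, Prep1deltaSM replicates 2 and 4 held the lowest places, as they did for Adipoq. Prep1f/+ replicate 4, low for Adipoq, was at 0.27, 0.38 and 0.53 in them. The 10 slow fibre genes, 10 of them lower (8 under quantile normalization), ran from -0.25 to 0.95 and from -0.70 to 0.27. Prep1deltaSM replicates 2 and 4 were lowest there too (-0.70 and -0.56). They were also lowest in the means of the lipid droplet genes (-0.38 and -0.06) and the fatty acid synthesis genes (-0.15 and -0.10). Endothelial genes ran from -0.16 to 0.41 and from -0.21 to 0.08, highest in Prep1f/+ replicate 1, where Fabp4 was also highest. The 5 erythroid genes ran from -0.94 to 0.74 and from -0.32 to 1.64, highest in Prep1deltaSM replicate 2, the muscle with the lowest Adipoq. Spans of more than 3 log2 were not limited to fat markers. Of the 10 slow fibre genes, 2 had them, Myl2 (26.4-fold) and Myh7 (19.1-fold). So did 2 of the 5 erythroid genes, Hba-a1 (9.16-fold) and Alas2 (9.11-fold). In the fibroblast, leukocyte, tendon, endothelial and fast fibre lists, 0 genes did. The fast fibre genes that define this muscle ran from -0.10 to 0.18, and their direction between genotypes depended on scaling (7 of 12 lower here, 3 of 12 under quantile normalization).

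**Figure D4:**
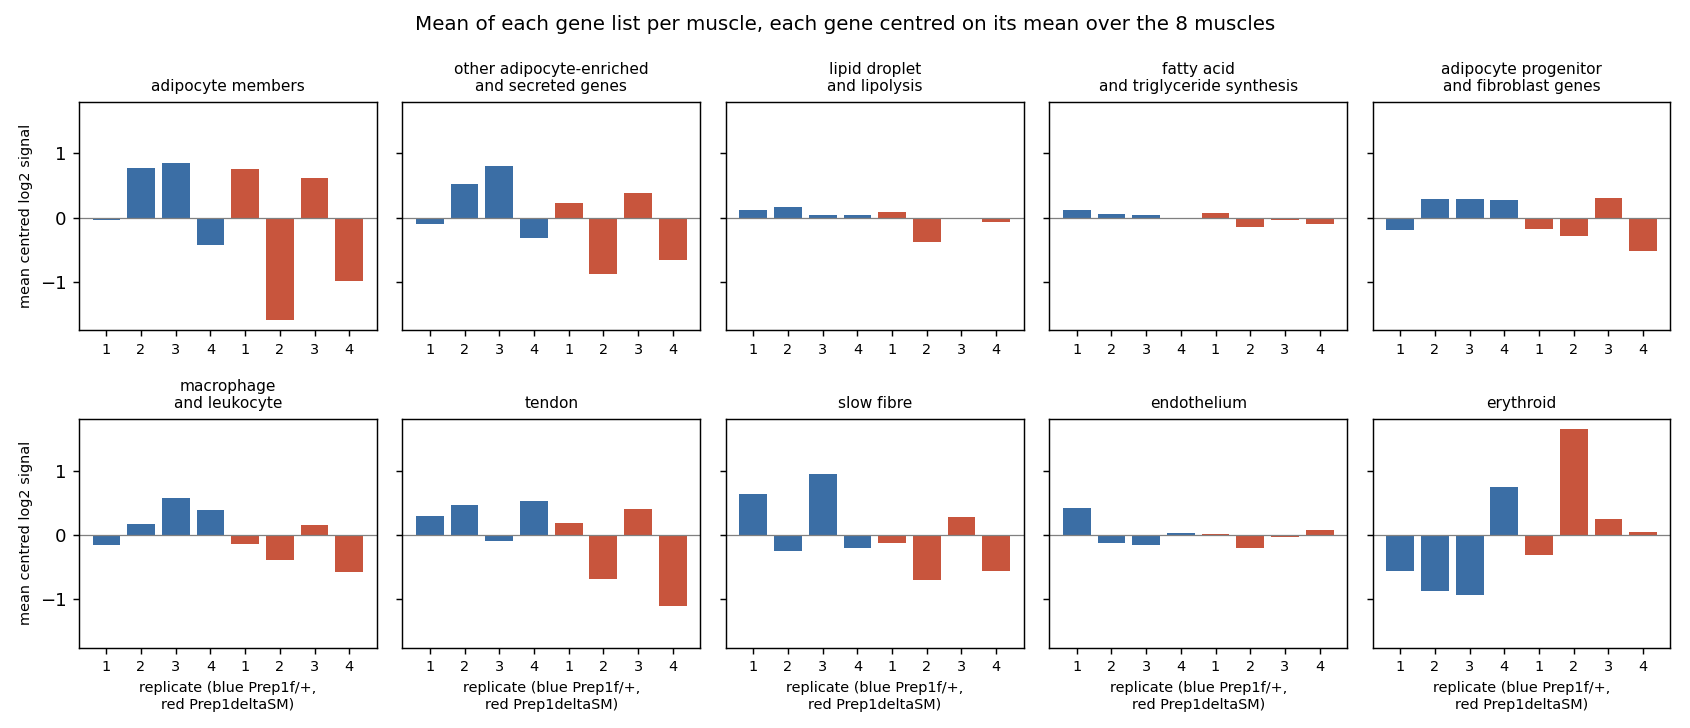
Mean log2 signal of 10 gene lists in each muscle (y axis, each gene centred on its mean over the 8 muscles; x axis, replicate number, blue for Prep1f/+ and red for Prep1deltaSM). The adipocyte members run from -1.59 to 0.85, and the other adipocyte-enriched genes follow them, while fatty acid synthesis genes stay between -0.15 and 0.12.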

How the data were processed

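Total RNA of 8 muscles, 4 per genotype, was measured on single-colour Agilent arrays (design 014868), with a separate array for every mouse. The deposited spot intensity came, per the file headers, from Feature Extraction 10.5.1.1 (protocol GE1_107_Sep09), with background subtracted and arrays left unscaled; version 9.1 is given in the submitters' processing notes. A second deposited table holds processed intensity, 32812 rows, from the authors. Its 26233 rows that came within 0.1 log2 of the quantile-normalized scanner signal on every array served as an alternative; its scale is linear and uncentred, with column medians of 12.7 to 13.2.

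From the intensities, log2 values relative to each array's 75th percentile were computed, flagged spots left out, spots of a probe averaged, and 24487 of 41174 probes kept (well above background on at least 4 arrays). Genes took their brightest probe, and 16015 were fitted in limma 3.58.1 (lmFit, then eBayes; R 4.3.3), with p-values adjusted by Benjamini-Hochberg over all genes. Exact permutation tests were two-sided, with 0.0286 as the smallest p; 4 against 4 arrays limit the precision, and p-values measure the spread between these mice.

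The members and lists were chosen with earlier results of these data known. Named were the members, Pknox1 and, from some of the lists, up to 4 genes per list by span or smallest p. So were the 10 genes most and the 5 least like the members' mean. The remaining lists are given by counts and means. Other genes named were chosen after their values were seen. Alternatives were normexp with an offset of 50 followed by quantile normalization, quantile normalization, median centring, other filters, mean of probes, slide as a block, the authors' values, a trended robust fit and each array left out.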

Additional observations from a re-analysis of the deposited data

How the results depend on the processing

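In all 18 alternatives 0 members passed an adjusted p of 0.05 (limma), and the median difference of the members stayed below 0, between -1.62 and -0.18 (-1.39 to -0.18 when 1 array was left out). After normexp and quantile normalization it was -0.42. The signs of single members held in 157 of 159 refits. Slide as a block, the trended robust fit and the other filters gave the same differences, so their refits could not change a sign. Fabp4 turned to 0.02 and Lipe to -0.15 without Prep1f/+ replicates 1 and 4, a setting added after seeing the data. Without Prep1deltaSM replicate 4, Pparg was 0.00. The number of genes passing, 1 in the reported fit, was 26 with normexp and quantile normalization (16 higher, 10 lower), 20 with a trended robust fit (7 higher, 13 lower), 0 with slide as a block and 0 without Prep1f/+ replicates 1 and 4. It was 0 to 5 when 1 array was left out: 0 if the array dropped was Prep1f/+ replicate 2 or 3, or Prep1deltaSM replicate 2, and 5 if it was Prep1deltaSM replicate 4. The cause was not tested. At an unadjusted p under 0.05, 1658 genes were lower and 887 higher, against 1305 and 1124 under quantile normalization. The mean of the members per array moved by less than its own pooled SD within genotypes (0.94) in 134 of 134 refits. Many of these refits could not move it far. Slide as a block, the trended robust fit and the all-array filter kept the same values. Leaving out an array only shifted all the means by a constant. The authors' table gave 6 of the 9 members, with a median of -0.86. Its rows were kept because they lay within 0.1 log2 of the quantile-normalized signal. It therefore had to repeat that setting and is no independent check. The labels pair no mice across genotypes; slide, which held 1 array of each, was the block used, and Pknox1 kept its difference of -1.76 there at an adjusted p of 0.0619 (limma). Signal over background limits Lep, and, outside the members, the low readings of Plin1, Pnpla3, Acvr1c, Orm1, Nnat, Tmem45b and Mrap.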

Other observations

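The probe NAP025923-1, which the array design names by no gene, followed Cfd almost exactly: their log2 difference moved by 0.28 over the 8 muscles, while the probe itself spanned 19.7-fold. It was noticed after its values were seen. Zic1, a transcription factor listed with the brown-fat genes, differed by -1.19 ± 0.46 (SE; limma, adjusted p = 0.277), with its spot in Prep1deltaSM replicate 4 left out of the fit. Of 22 groups of 4 examined for a single far value (a member or the members' mean in 1 genotype), 0 passed the Dixon limit.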
